A study of Homo sapiens with 4 samples.

Results

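RAD21 binding was examined at 34 imprinted genes and their control regions. RAD21 is a core subunit of cohesin, the ring-shaped complex that holds chromatin loops. Members were the genes of a list of known imprinted clusters, and a RAD21 peak was assigned to a gene when its summit lay within the GENCODE version 44 gene record or 10 kb of it. The whole H19/IGF2 interval on chromosome 11 was included. This rule gave 110 of the 56853 peaks of the list (0.193%), in 18 clusters of neighbouring genes. It used positions only, and the gene list was drawn up with earlier results of these data known.

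The study followed the movement of chromatin loci in HCT116, a human colon carcinoma cell line, with and without cohesin. Its ChIP-seq part comprised 4 libraries made without replicates. RAD21 was precipitated from untreated wild-type HCT116 cells, from untreated HCT116_RAD21_AID cells and from HCT116_RAD21_AID cells given the auxins IAA and α-NAA (indole-3-acetic and alpha-naphthaleneacetic acids), 500 μM of each, over 6 h, and an Input library was made from the latter. HCT116_RAD21_AID is 1 clone that carries the mAID degron in the RAD21 gene and expresses the OsTIR1 ubiquitin ligase. All values below come from the wild-type peak list. The 3 remaining libraries were not analysed here. A peak list holds no expression values, so the identity of the cells could not be checked against marker genes. It also does not separate the parental alleles.

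An imprinted gene is expressed mainly from the allele of one parent. Most imprinted genes lie in clusters that depend on a control region, a stretch of DNA that is methylated on one parental allele only. At H19 and IGF2 this region binds the zinc finger protein CTCF on the maternal, unmethylated allele and insulates IGF2 from enhancers beyond H19. CTCF stops cohesin on chromatin in an orientation-dependent way, so that cohesin peaks often lie at CTCF motifs.

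The sequences that the H19 result turns on are the repeated CTCF sites of the H19 control region. They are shown from the GRCh38 reference, not from reads, 5′ to 3′ on the minus strand, with 10 bases to either side of the 20 bases in capitals, over which the CTCF motif was scored. Sites were found by the letters GGCGGCAG, searched on both strands of the H19 gene record, and are numbered along the chromosome.
H19 site 1 (chr11:1999033-1999072): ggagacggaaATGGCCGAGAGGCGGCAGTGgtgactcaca
H19 site 2 (chr11:1999956-1999995): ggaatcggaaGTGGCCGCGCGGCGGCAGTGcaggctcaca
H19 site 3 (chr11:2000362-2000401): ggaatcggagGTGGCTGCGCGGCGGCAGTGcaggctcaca
H19 site 4 (chr11:2000768-2000807): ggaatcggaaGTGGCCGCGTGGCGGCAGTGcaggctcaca
H19 site 5 (chr11:2002201-2002240): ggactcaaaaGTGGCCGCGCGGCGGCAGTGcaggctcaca
H19 site 6 (chr11:2002602-2002641): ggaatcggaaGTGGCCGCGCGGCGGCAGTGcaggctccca
H19 site 7 (chr11:2003007-2003046): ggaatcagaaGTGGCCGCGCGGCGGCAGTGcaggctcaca
Sites 2, 5, 6 and 7 had the same 20 bases. Against these, with positions counted from the first capital, site 1 carried the changes G1A, C8A and C10A, site 3 the change C6T and site 4 the change C10T. A match to the 8 letters on the plus strand, H19 site 8, differed from them at 8 positions and scored far below the other sites (-7.64, against 1.92 to 11.1). The letters GGCGGCAG occurred within 50 bp of the summit in 1.40% of all peaks (795) and in 5 of the member peaks.

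For comparison, the following motifs lay at high peaks of IGF2 and of members of 4 other clusters, each in capitals and read along its own strand.
IGF2 (chr11:2156619-2156658, minus strand): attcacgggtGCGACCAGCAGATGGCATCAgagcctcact
KCNQ1, low side of the pair (chr11:2531544-2531583, minus strand): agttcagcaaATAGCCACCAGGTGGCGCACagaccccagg
KCNQ1, high side of the pair (chr11:2532939-2532978, plus strand): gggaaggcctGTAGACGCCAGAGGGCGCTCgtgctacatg
CDKN1C (chr11:2888538-2888577, minus strand): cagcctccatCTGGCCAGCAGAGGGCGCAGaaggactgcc
MEG3 (chr14:100851302-100851341, plus strand): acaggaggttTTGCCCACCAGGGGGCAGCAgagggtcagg
MAGEL2 (chr15:23642577-23642616, plus strand): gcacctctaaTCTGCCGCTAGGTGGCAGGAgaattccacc
GNAS (chr20:58839583-58839622, minus strand): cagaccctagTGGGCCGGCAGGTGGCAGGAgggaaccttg
Such a motif was called when the best match to a CTCF matrix, learned from peaks outside the member windows, had its centre within 50 bp of the summit and scored at least 10.5, a score reached by 1.00% of the 110149 control windows 5 kb away. A motif match is a description of the letters and does not show that CTCF was bound.

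Of the 34 members, 31 had at least 1 RAD21 summit in the gene or within 10 kb of it. Over all 38726 protein-coding and long non-coding RNA genes, 71.9% had one. The share was 62.4% for genes under 20 kb and 84.1% for genes of 20 kb or more. Of the members, 9 of 11 short genes and 22 of 23 long genes had a summit. NDN, a MAGE family gene of the SNRPN cluster, ZDBF2, a zinc finger gene, and AIRN, the non-coding RNA antisense to IGF2R, had none.

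In the merged windows of 3597744 bp there were 30.6 peaks per Mb, against 21.7 in the merged windows of all genes and 19.2 over chromosomes 1 to 22, X and Y. The fold enrichment at a summit, which is the ratio of ChIP fragments to the local background with 1 added to each, had a median of 6.01 over the member peaks (95% order-statistic interval 4.49 to 7.42). Over all peaks the median was 5.58. The quartiles were 3.33 and 14.6 for the member peaks and 3.46 and 10.7 for all peaks. The member peaks ranged from 2.19 to 78.4. A fold enrichment of at least 10 was reached by 33 of the 110 member peaks (30.0%, 95% Wilson interval 22.2 to 39.1%), against 27.2% of all peaks. The interval includes the share of all peaks.

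Summits within 1 kb of an annotated transcript start made up 41 of the 110 member peaks (37.3%, 28.8 to 46.6%), against 23.6% of all peaks. Since the members were chosen around genes, the peaks in the windows of all genes are a closer background, and there the share was 29.8%, inside the interval. Without the KCNK9-TRAPPC9 cluster, a setting added after the data were seen, the share was 44.9% (35 of 78 peaks, 34.3 to 55.9%), and the interval then lay above 29.8%. The cluster left out had 6 of its 32 peaks at a start, and the background was not reduced in the same way. Neighbouring peaks are also not independent, so no excess at starts is read from this setting. The remaining summits lay in introns (49), outside genes (13) and in exons (7). A CTCF motif was found at 53 member peaks (48.2%, 39.1 to 57.4%), with 32 on the plus and 21 on the minus strand, against 56.8% of all peaks, a share inside the interval. Member peaks with the motif had a median fold enrichment of 10.1 and those without it 3.38, and over all peaks these medians were 8.50 and 3.48. Of the 33 member peaks that reached 10, 27 held a motif (81.8%, 65.6 to 91.4%), against 87.5% of such peaks in the whole list. The 6 without one included all 3 peaks of H19.

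These numbers come from 1 library, so there was no spread between replicates against which to set clusters, and no test was made. Intervals cover counting error only. The median member summit was covered by 46.5 ChIP fragments. The background of 44 member peaks lay at the genome-wide floor of 5.90 fragments, and 4 had at least 2 times the floor, with a highest value of 3.37 times. In what follows, the values in brackets after a fold enrichment are its 95% interval from the Poisson error of the fragments.

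**Figure D1:**
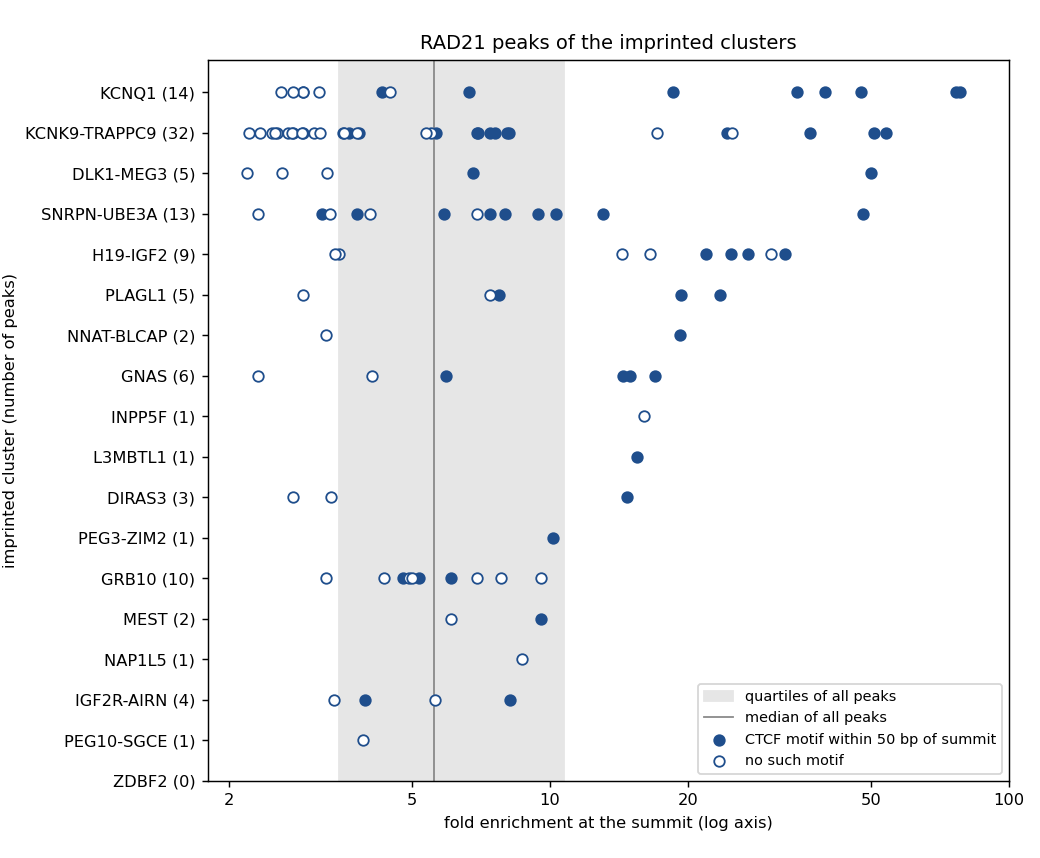
Fold enrichment at the summit (x axis, log scale) of each of the 110 member peaks, by imprinted cluster (y axis, number of peaks in brackets), ordered by the highest peak; filled circles have a CTCF motif within 50 bp of the summit, open circles have none, and the grey band and line give the quartiles (3.46 and 10.7) and median (5.58) of all peaks. 12 clusters had a peak of at least 10, KCNQ1 held the highest at 78.4, and ZDBF2 had no peak.

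The clusters differed widely. A fold enrichment of at least 10 was reached in 12 of the 18 clusters and one of at least 30 in 5, namely KCNQ1, KCNK9-TRAPPC9, DLK1-MEG3, SNRPN-UBE3A and H19-IGF2. The 12 member peaks of at least 30 (10.9%, 6.35 to 18.1%) lay in these 5 clusters, against 4.34% of all peaks past this value. Unlike the value of 10, at which the shares were 30.0% and 27.2%, that of 30 was not set in advance. Its share among the peaks in the windows of all genes was not computed. As several of the 12 peaks are neighbours within a cluster, they are not independent of each other. A CTCF motif was held by 11 of the 12, against 93.9% of all peaks of at least 30. The exception was the highest peak of H19. In KCNQ1, KCNK9-TRAPPC9, DLK1-MEG3 and SNRPN-UBE3A a few high peaks stood among lower ones, as the plot of fold enrichment by cluster shows. H19-IGF2 had the highest median of the clusters, 21.9, and 7 of its 9 peaks reached 10. GRB10 was the opposite case, with 10 peaks and none above 9.56. Over all 18 clusters, 1 had no peak, 5 had 1, 7 had between 2 and 6, and 5 had 9 or more. On chromosome 11, which carries the H19-IGF2 and KCNQ1 clusters, 13 of 23 member peaks reached 10.

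H19 encodes a long non-coding RNA expressed from the maternal allele. Its 3 peaks all fell in the region upstream of the classical gene start that holds the repeated CTCF sites. GENCODE extends the H19 record over this region, to 2004552. The RefSeq record ends at 2001266, so it holds the summits at 1998492 and 1999970 but not that at 2002212. All 3 summits lay 485 to 617 bp upstream of an annotated H19 start other than the canonical one. The middle peak, from 1999477 to 2001052 with its summit at 1999970, had 208 fragments and a fold enrichment of 30.3 (26.3 to 34.7). The peak on its low side, summit 1998492, had 98 fragments and a fold enrichment of 14.3 (11.7 to 17.5). The one on its high side, from 2001948 to 2002461 with its summit at 2002212, had 113 fragments and a fold enrichment of 16.5 (13.6 to 19.8). The interval of the middle peak did not overlap those of its neighbours.

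For 2 of the 3 H19 peaks the summit lay at a single site of the repeat. That of the middle peak lay 5 bp from the centre of site 2, and that of the third peak lay 8 bp from site 5. The middle peak also covered sites 3 and 4, and the first peak covered site 1, although its summit was 560 bp away. Sites 6 and 7 have the same 20 bases as sites 2 and 5, yet lay in no peak, 409 and 814 bp from the nearest summit. The 100 bases of the reference centred on each site had 0 other exact copies in the assembly, while near-identical copies and the mapping of reads there were not tested. No H19 peak met the motif score of 10.5. The 4 identical sites scored 10.3, just under it, and site 4, which scored 11.1, was more than 50 bp from a summit. With the threshold lowered to the score of 2% of control windows, a choice made after the data were seen, the share of member peaks with a motif rose to 60.0%, against 63.2% of all peaks.

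IGF2 encodes an insulin-like growth factor expressed from the paternal allele. It had 5 peaks in its window, and their heights fell into separate ranges. Summits at 2123476, beyond the 3′ end of the gene, and at 2148463, in an exon, had 23 and 25 fragments and fold enrichments of 3.48 and 3.41. The 3 others were high. The summit at 2151603 lay in a peak of 2899 bp, the widest of the interval, with 290 fragments and a fold enrichment of 24.8 (22.04 to 27.8). The summit at 2156628 had 278 fragments and a fold enrichment of 32.5 (28.8 to 36.6), and that at 2166310 had 205 fragments and 27.0 (23.4 to 30.9). The latter lay 464 bp downstream of the nearest annotated start of TH, the gene of tyrosine hydroxylase, which has not been checked to be its main start. Both intronic motifs pointed along the minus strand, towards H19, while the one at TH pointed away.

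The stretch between H19 and IGF2 spans 124559 bp and held 2 summits. One was the low peak beyond IGF2. The other, at 2037061, lay 32509 bp upstream of the annotated H19 start, outside genes, and had 150 fragments and a fold enrichment of 21.9 (18.5 to 25.7). Its motif was on the plus strand, towards IGF2. In chromosome order, the called motifs of the interval thus read plus, minus, minus, plus, and the H19 sites below the threshold were on the minus strand, pointing away from IGF2.

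**Figure D2:**
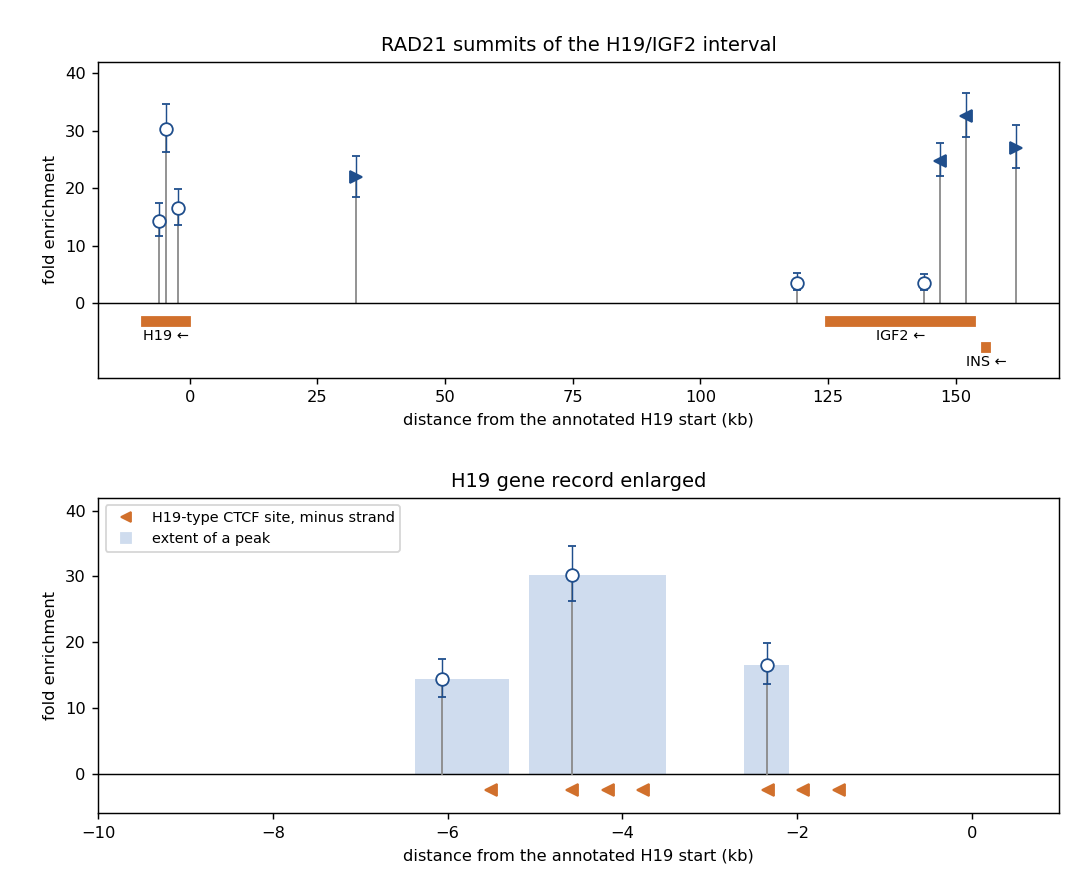
Fold enrichment (y axis) at the 9 RAD21 summits of the H19/IGF2 interval against the distance in kb from the annotated H19 start (x axis), with gene records as bars below; triangles point along a CTCF motif, open circles have no motif at the threshold, and error bars are 95% intervals from counting error. The lower panel enlarges H19, where 3 peaks of 14.3, 30.3 and 16.5 covered 5 of the 7 minus-strand sites and left the 2 sites nearest the annotated start uncovered.

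The KCNQ1 cluster neighbours H19-IGF2 and is governed by another control region, at the start of KCNQ1OT1 within a KCNQ1 intron. KCNQ1 encodes a potassium channel, and its 7 peaks included both of the highest of all members. The summits at 2531540 and 2532978 were 1438 bp apart, with 540 and 690 fragments and fold enrichments of 78.4 (71.9 to 85.3) and 76.8 (71.2 to 82.8). Their intervals overlapped. Of all peaks in the list, 99.9% were lower than each of them. Their motifs, printed above, were on the minus and then the plus strand, so that the pair was divergent. The other 5 KCNQ1 peaks had fold enrichments between 2.90 and 6.67.

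The control region itself carried little signal. The summit closest to the start of KCNQ1OT1, the paternally expressed antisense RNA, was at 2699806, 197 bp from it, with 19 fragments, a fold enrichment of 2.90 (1.80 to 4.44) and no motif. A further summit within KCNQ1OT1, at 2692542, had a fold enrichment of 6.67 and a motif on the plus strand. CDKN1C, a maternally expressed inhibitor of cyclin-dependent kinases, lay beside 3 high peaks instead. The summit at 2885118, 657 bp from its canonical start and 417 bp from another annotated start, had a fold enrichment of 18.6 (15.5 to 22.04). The summits at 2888550 and 2892244 followed with 47.7 (43.8 to 51.9) and 39.7 (35.2 to 44.7). All 3 motifs were on the minus strand.

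At the far end of the cluster, PHLDA2, a pleckstrin homology domain gene that restrains placental growth, showed both kinds of peak side by side. The summit 87 bp inside its start had 36 fragments over a raised background, 2.25 times the floor, and a fold enrichment of 2.59. The summit at 2930907, 1487 bp upstream of the gene, had 361 fragments and 34.6 (31.1 to 38.3), with a motif on the plus strand. SLC22A18, an organic cation transporter gene, shared both of these peaks with PHLDA2 and those at 2890634 (2.75) and 2892244 (39.7) with CDKN1C. Its only summit not shared with another member, at 2903764, had a fold enrichment of 4.31. From CDKN1C to PHLDA2 the motifs thus changed from 3 on the minus strand to 2 on the plus strand, as the plot of the KCNQ1 domain shows.

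**Figure D3:**
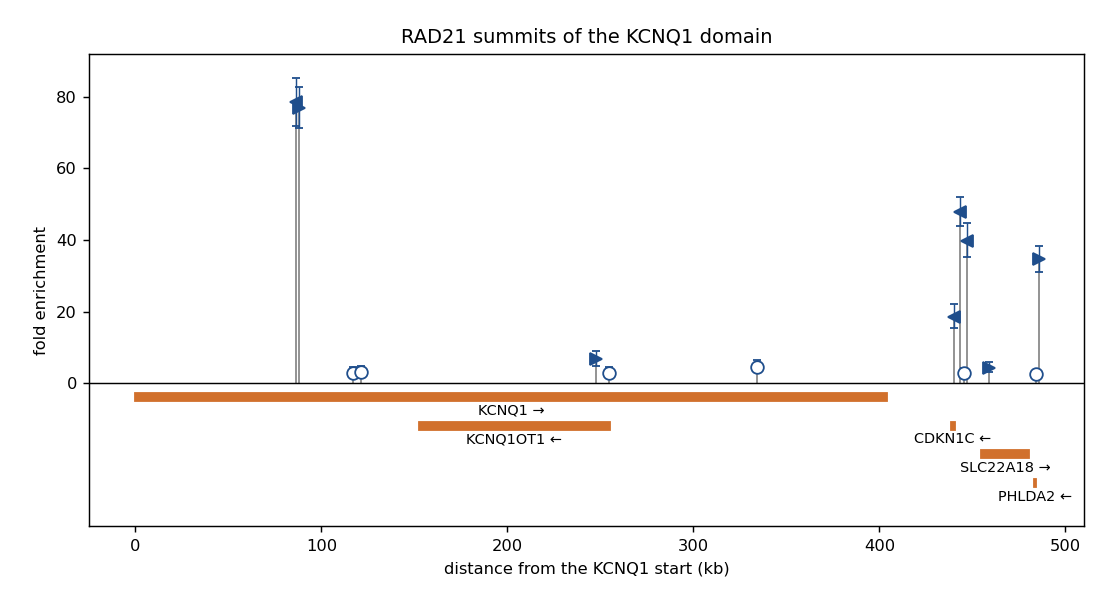
Fold enrichment (y axis) at the 14 RAD21 summits of the KCNQ1 cluster against the distance in kb from the KCNQ1 start (x axis), with gene records as bars below and arrows for their direction; triangles point along a CTCF motif, open circles have none, and error bars are 95% intervals from counting error. The intronic pair stands at 78.4 and 76.8, and the peak at the start of KCNQ1OT1 at 2.90.

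DLK1, a membrane protein related to Notch ligands, and MEG3, a maternally expressed non-coding RNA, share a cluster on chromosome 14. DLK1 had 1 peak, 8838 bp beyond the gene, with 24 fragments and a fold enrichment of 2.19 (1.43 to 3.22), the lowest of all members. It was also the only summit in the 41185 bp between DLK1 and MEG3. MEG3 had 4 peaks. That at its canonical start, the first base of the GENCODE record, had a fold enrichment of 2.61. The next, at 100828181 and 770 bp from another annotated start, had one of 3.26. The summit at 100851343, in an exon, reached 344 fragments and a fold enrichment of 50.0 (44.9 to 55.6). The one after it, at 100855611, had 6.81. Both of the latter held motifs on the plus strand.

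The SNRPN-UBE3A cluster on chromosome 15 is known for the genes lost in Prader-Willi and Angelman syndromes. Its 13 peaks were unevenly spread. MAGEL2, which encodes a MAGE family ubiquitin ligase regulator, had 3 of them, with fold enrichments of 48.1 (43.1 to 53.6) at 23642616, 9.42 at 23645488 and 13.0 at 23649115. All 3 had motifs on the plus strand. MKRN3, a ring finger gene, had 2 peaks of 3.19 and 7.39. NDN lay 38190 bp from the nearest summit.

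SNRPN, a splicing protein gene whose start lies in the control region of the cluster, had 1 peak in its window, at 24847202, with 47 fragments, a fold enrichment of 6.96 (5.15 to 9.20) and no motif. The canonical SNRPN start lay 101591 bp from the nearest summit, the largest such distance among the control-region starts examined. UBE3A, a ubiquitin ligase gene, had 2 summits at its start, with fold enrichments of 5.88 and 3.32, and only the former held a motif. ATP10A, a phospholipid transporter gene, had 5 peaks between 2.32 and 10.3. The lowest of these had a background of 3.05 times the floor.

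Between NDN and SNRPN the domain was sparsely covered. The 1136331 bp from NDN to SNRPN held 8 summits, or 7.04 per Mb, against 22.3 per Mb over chromosome 15, and the highest of them reached 11.7. Between SNRPN and UBE3A there were 6 summits, 16.9 per Mb, with a highest value of 6.81.

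**Figure D4:**
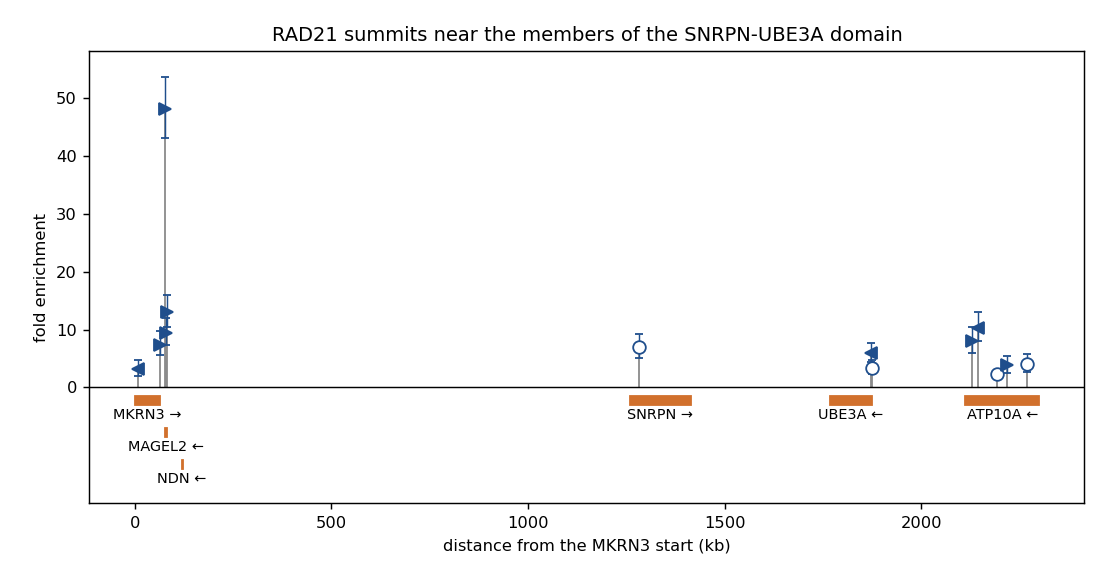
Fold enrichment (y axis) at the 13 RAD21 summits near the members of the SNRPN-UBE3A cluster against the distance in kb from the MKRN3 start (x axis), with gene records as bars below; triangles point along a CTCF motif, open circles have none, and error bars are 95% intervals from counting error. The MAGEL2 summit of 48.1 stands above all others, SNRPN has a single summit of 6.96, and peaks outside the 10 kb windows are not drawn.

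GNAS encodes the stimulatory G protein alpha subunit from several alternative starts, some of them imprinted. Its 6 peaks were close together, at 65.6 per Mb. The summit 129 bp upstream of the first annotated start had 116 fragments and a fold enrichment of 17.0 (14.04 to 20.3), with a motif on the minus strand. Summits at 58864599 and 58870457, both intronic, had 14.9 (12.2 to 18.1) and 14.5 (12.3 to 16.8), with motifs on the plus strand. The intervals of these 3 overlapped. The summits at 58852849, 58881143 and 58889430 were lower, at 5.94, 4.10 and 2.32. That of 2.32 lay 203 bp inside a GNAS start and had 15 fragments.

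PLAGL1, a zinc finger transcription factor gene, had 5 peaks with fold enrichments from 2.90 to 23.4. The highest, at 144013587, lay 4764 bp upstream of the nearest start and had a minus-strand motif, and the lowest was the one at the imprinted start itself. DIRAS3, a Ras-like GTPase gene, had 3 peaks, with 2.75 (1.69 to 4.27) at 68043971, beyond the 3′ end, 3.33 (2.14 to 4.97) at a summit 57 bp from its start and 14.7 (12.5 to 17.2) at 68058239, 6522 bp upstream. Its density of 116 per Mb rested on 3 peaks in a window of 25832 bp. Among the other small clusters, INPP5F, an inositol phosphatase gene, had 1 peak of 16.1 (13.7 to 18.7) at 119750819, 52 bp from an internal start and without a motif. L3MBTL1, a Polycomb-related gene, had 1 peak of 15.5 (12.8 to 18.5), 689 bp upstream of an internal start and with a motif on the plus strand.

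PEG3 and ZIM2, zinc finger genes that share a start region, shared 1 peak of 10.1 (7.93 to 12.8), 249 bp inside an annotated PEG3 start and with a minus-strand motif. PEG10, a gene derived from a retrotransposon, and SGCE, the epsilon-sarcoglycan gene that is read in the opposite direction, shared 1 peak at their common start, with a fold enrichment of 3.91 (2.64 to 5.59) and no motif. MEST, a hydrolase gene, had peaks of 9.55 and 6.09, and only the former held a motif. NNAT lies within an intron of BLCAP. A summit of 3.26 was assigned to both, and one of 19.3 (16.3 to 22.6) to BLCAP alone. NAP1L5 had 1 peak of 8.70, 8852 bp from the gene.

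IGF2R, the receptor that clears IGF2, had 4 peaks, all below 10. Those of 3.38 and 3.97 lay at its start, and those of 8.20 and 5.61 towards the 3′ end. The start of AIRN, whose transcription silences Igf2r in mice, was 37962 bp from the nearest summit. GRB10, an adaptor of insulin receptor signalling, had 10 peaks from 3.25 to 9.56, and 3 of them held a motif. The nearest summit to ZDBF2 was 81842 bp from its start, and 2 summits lay within 100 kb of the gene.

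KCNK9, a potassium channel gene, and TRAPPC9, a gene of vesicle trafficking, formed the largest cluster, on chromosome 8. It had 32 peaks, 29.1% of all member peaks, over a window of 874127 bp. Most were low and intronic. The 22 peaks of TRAPPC9 had a median fold enrichment of 3.55, and the 10 of KCNK9 one of 6.97. KCNK9 nevertheless had 2 of the highest member peaks, with 50.9 (47.0 to 55.0) at 139631044 in an intron, 628 fragments, and 54.0 (49.2 to 59.1) at 139705987, 1878 bp from the gene, 462 fragments. Their motifs were on the minus and the plus strand. In TRAPPC9, the summit at 140393985 had 36.9 (33.6 to 40.4) and a minus-strand motif, while that at 140159771 had 25.0 (21.9 to 28.4) and none. PEG13, the non-coding gene in a TRAPPC9 intron at the control region, had a summit of 3.54 at 244 bp from its start. The median background was 7.58 fragments in this cluster and 8.42 over the peaks of the chromosome, against 6.63 to 7.58 on the other chromosomes that carry member peaks, and its part in these values was not tested. Without this cluster, 78 member peaks remained, with a median fold enrichment of 6.87.

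The canonical starts of 20 genes in or beside known control regions, called control-region starts throughout, were then compared with each other. For H19 this was the start of the GENCODE record, beyond the repeated sites. For MEG3 it was likewise the first base of that record. The summit at 100828181, with 3.26, lay 770 bp from another annotated MEG3 start. Which of the MEG3 starts lies in a control region was not examined. Whether the canonical starts of the other genes lie in one was not checked either. At INPP5F the canonical start lay 24769 bp from the nearest summit, which was 52 bp from another annotated start. For 7 of the 20 canonical starts the nearest summit lay within 1 kb (95% Wilson interval of the share 18.1 to 56.7%). The share was 25.9% over all protein-coding and long non-coding RNA genes, which is inside the interval. For 7 it lay between 1 and 10 kb, and for 6 beyond 10 kb. The 7 close ones were those of DIRAS3, KCNQ1OT1, PEG10, PEG13, HYMAI, PLAGL1 and MEG3, at 57 to 464 bp. HYMAI and PLAGL1 shared a summit, so that there were 6 different summits. Their fold enrichments ranged from 2.61 to 3.91, all below the median of 4.78 of the member peaks at a start and that of 4.20 of all peaks at a start. None of the 6 held a CTCF motif, against 42.4% of all peaks at a start. Over all peaks, those at a start without a motif had a median of 3.30. The picture depends on the limit of 1 kb and on the use of canonical starts. The next summits out lay 1063 bp from the MEST start and 1946 and 1991 bp from those of GNAS-AS1 and GNAS. They had fold enrichments of 6.09, 5.94 and 2.32, and only that at GNAS-AS1 held a motif.

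The ratio of observed to expected CpG within 150 bp of these 6 summits ranged from 0.398 to 0.916. The MEG3 summit gave the lowest ratio and also the lowest fold enrichment of the 6. The median ratio was 0.657 over all peaks at a start and 0.289 over all peaks. At H19 the nearest summit was 2340 bp from the annotated start, with a fold enrichment of 16.5, and at PEG3 it was 3157 bp away, with 10.1. When any annotated start of these genes was counted in place of the canonical one, 15 of the 20 had a summit within 1 kb, against 32.1% of all genes. These genes had a median of 9 annotated starts and all genes one of 2, so the shares are not like for like. The closest summits of these 15 genes had fold enrichments from 2.90 at KCNQ1OT1 to 30.3 at H19. The low values given above thus hold for the canonical starts only. At a q-value of 1e-05, also added after the data were seen, only 2 of the 7 close starts kept their summit.

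**Figure D5:**
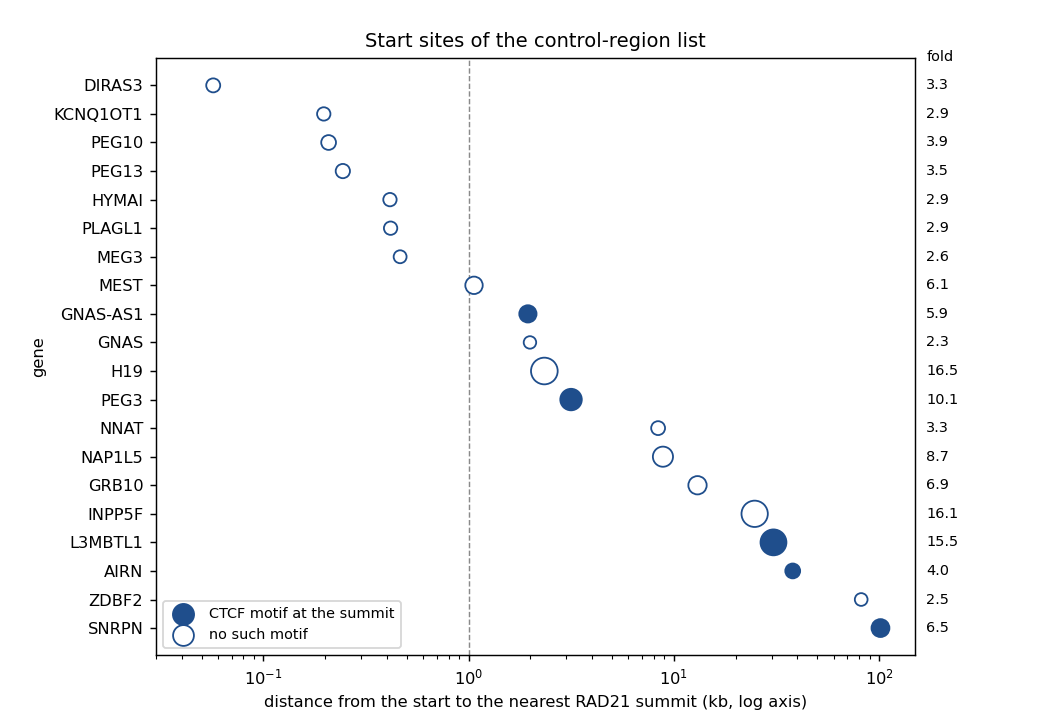
Distance in kb (x axis, log scale) from the canonical start of each of 20 genes in or beside a control region (y axis) to the nearest RAD21 summit, with the fold enrichment of that summit at the right; circle area grows with fold enrichment, filled circles have a CTCF motif, open circles have none, and the dashed line marks 1 kb. The 7 starts to the left of the line have fold enrichments of 2.61 to 3.91, and SNRPN lies farthest, at 101591 bp.

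The summit at 2037061, included only because the H19/IGF2 interval was taken whole, lay 32509 bp from H19. Among summits assigned by the limit of 10 kb, the largest distance was 9087 bp, from SLC22A18 to a summit with a fold enrichment of 2.75. That summit also lay 4859 bp from CDKN1C. The next largest distance was that of NAP1L5, at 8852 bp. Just outside the limit lay summits 10026 bp from ZIM2, with 3.48, and 12709 bp from L3MBTL1, with 3.80. The KCNQ1 window ended short of a peak higher than any member, at 2428404, 16250 bp upstream of the gene record, with 601 fragments, a fold enrichment of 87.2 and a plus-strand motif. It was the highest of 14 summits between IGF2 and KCNQ1, an interval with 48.9 summits per Mb.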

How the data were processed

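RAD21 ChIP-seq peaks were taken from the wild-type HCT116 list. Per the labels and methods, the authors trimmed reads with Trimmomatic 0.39, aligned them with Bowtie2 2.5.3 to GRCh38, removed duplicates with Picard and called peaks on this library with MACS2 2.2.9.1 at a q-value of 0.05 against Input. Which Input was used is not given in the sources used here. The deposited values are a fold enrichment (ratio to the local background), −log10 p-values and q-values, and a score, which was not used. A fold enrichment depends on the Input background, which also moves with copy number. The list gives no read total.

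Fragments and background were recovered from the fold enrichment and p-value, within 0.05 of a whole number for all but 14 peaks. No peak passed a sequence end of GRCh38. A CTCF matrix of 20 positions was learned over 5 rounds from the 5000 highest peaks outside the member windows (4844 sites used). Recovery and scanning were checked on simulated data. Summits were classed with GENCODE version 44, as start (within 1 kb), exon, intron or intergenic in that order. Peaks described in full were all of the H19/IGF2 interval, the highest of each cluster and the nearest to each control-region start. Others were given by ranges or singly for their place in a cluster. Members and lists were chosen with earlier results of these data known. Alternatives were stricter q-values, other flanks, start and motif limits. The tools were samtools 1.23.1 and Python 3.11.15 with pandas 2.3.3, numpy 2.4.6, matplotlib 3.10.9 and scipy 1.17.1.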

Additional observations from a re-analysis of the deposited data

How the results depend on the processing

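No paired analysis was possible because 1 library was analysed and no test between groups was made. Of 81 alternative values, 74 kept within their limits. At a q-value of 1e-05, the median fold enrichment of the member peaks was 7.73 (all peaks 6.96), the share with a CTCF motif 61.2% (all peaks 67.4%) and the number of control-region starts with a summit within 1 kb fell to 2, since that setting removes weak peaks (for the starts it was added after the data were seen). The motif share was 31.8% with the CTCF consensus at no more than 1 mismatch (all peaks 39.6%) and 60.0% at the looser matrix threshold of 2%, added after the data were seen (all peaks 63.2%). With a start limit of 2 kb, the share of peaks at a start was 48.2% (all peaks 30.6%), and a fold enrichment of at least 5 was reached by 57.3% (all peaks 55.1%). These limits count more peaks by construction. A background, copy number or allele effect was not tested, and weak summits with under 20 fragments, such as that of KCNQ1OT1, have wide intervals.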

Other observations

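Further genes of imprinted domains, which were not members, were listed, and 26 of these 30 had a RAD21 summit within 10 kb. Over all genes the share was 71.9%, with 62.4% for genes under 20 kb and 84.1% for longer ones. The list includes DLGAP2, a gene of 970849 bp with 29 peaks. It is not separate from the members, since the summits counted for INS, HYMAI, GNAS-AS1 and PEG13 are member peaks of IGF2, PLAGL1, GNAS and TRAPPC9. ASCL2, USP29, CPA4 and NLRP2 had none. High peaks lay at RTL1 and MEG8, which share a summit with a fold enrichment of 51.0 in the DLK1-MEG3 domain, at SLC22A3 beyond IGF2R, with 50.9, at TSPAN32 between IGF2 and KCNQ1, with 49.3, and at OSBPL5 beyond PHLDA2, with 44.5. In the SNRPN domain, SNHG14, the host gene of the small nucleolar RNAs, had 6 peaks with a highest value of 6.81. RB1, which carries an imprinted CpG island, had 5 peaks of up to 25.8, and FAM50B had 1 of 15.5, with its summit 41 bp from the start. Whether any of these peaks differs between the parental alleles was not tested.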
